A study of Mus musculus with 16 samples.

Results

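The mitochondrial genome of the mouse encodes 37 genes, and all 37 are present among the 55414 genes of the deposited count table for kidney cortex. They were chosen by symbol: a gene belonged to the set when its Ensembl identifier carries a symbol starting with mt- in the GENCODE M21 annotation. The set holds 13 genes of respiratory chain proteins, 2 ribosomal RNAs and 22 transfer RNAs. Each was followed across sedentary and exercised mice, together with the share of all counts that the set took.

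Mitochondrial DNA is a small circular genome that is transcribed from both strands into long precursor RNAs. These are cut at the transfer RNAs into messenger and ribosomal RNAs, most of which receive a poly(A) tail inside the organelle. The proteins it encodes are core subunits of complexes I, III and IV of the respiratory chain and of the ATP synthase, while all other subunits come from nuclear genes. The kidney cortex, and its proximal tubule above all, is rich in mitochondria because salt reabsorption consumes ATP.

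The tissue came from wild-type male C57BL/6J mice, a common inbred strain, and no genetic change was made in any group. One group stayed sedentary, and the others were forced to run on a treadmill for 40 minutes at 70% of capacity, for 1 day (called 24 h), for 1 week (called 1 wk) or for 2 weeks (called 2 wk). The sources used here do not give the age of the animals, and the 24 h label does not settle whether the animals ran within 1 day or were killed 24 h after a run. Each of the 4 groups had 4 libraries of polyadenylated RNA. Every library name carries a code of its own, but no label says what the code stands for or ties each library to its own animal. The p-values therefore describe how these libraries vary, which may be technical. An unexplained letter in the titles differs between sedentary and exercised libraries, and library numbers run in group order, so that neither can be told apart from exercise. Depth was 39766260 to 66852397 counts per library, and every pair of libraries within a group differed by more than sampling noise. Comparisons with the sedentary group share its libraries, as comparisons with the 24 h group share theirs.

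The 13 protein genes held 96.7% of the mitochondrial counts of all 16 libraries together, the ribosomal RNAs 3.33% and the transfer RNAs 0.00895%. The protein genes fell into 2 sets by their raw counts. Cytochrome b (mt-Cytb), the complex IV subunit mt-Co1 and the complex I subunits mt-Nd1, mt-Nd2, mt-Nd4 and mt-Nd5 had at least 49747 counts in every library, and the complex I subunit mt-Nd6 had 122 to 406. The remaining 6 protein genes had at most 6 counts in any library. They were the complex IV subunits mt-Co2 and mt-Co3, the ATP synthase subunits mt-Atp6 and mt-Atp8, and the complex I subunits mt-Nd3 and mt-Nd4l. Among them mt-Atp8 and mt-Nd4l were at 0 in all 16 libraries, and a count of 0 allows up to 3 counts per library. No comparison between groups could be made for these 6 genes.

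**Figure D1:**
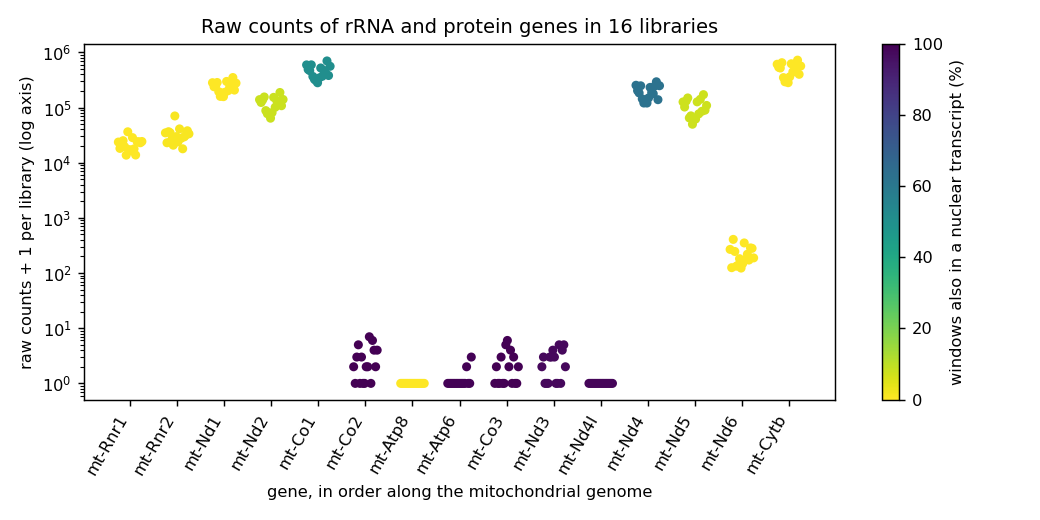
Raw counts plus 1 per library (log axis) for the 2 ribosomal RNA and 13 protein genes in genome order; each point is a library, and colour gives the percentage of a transcript's 50-base windows that also occur in a nuclear transcript. The 6 genes from mt-Co2 to mt-Nd4l lie at 6 counts or fewer, and mt-Atp8 is the 1 among them that shares no window with an annotated nuclear transcript.

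The 6 genes sit side by side on the mitochondrial genome, and the annotation holds a near-identical copy of that stretch on nuclear chromosome 1. The copy consists of 7 annotated pseudogenes on the minus strand of GRCm38 chr1:24611535-24616197, which follow the order of chrM:6390-11042. Gm28661 matched 681 bases of mt-Co2 with 100% identity, Gm10925 matched 678 bases of mt-Atp6 with 100% and Gm28437 matched 783 bases of mt-Co3 with 100%. Gm10222 matched 294 bases of mt-Nd4l with 100%, and Gm28438 matched 345 bases of mt-Nd3 with 99.7%. The copy also took in the first 876 bases of mt-Nd4 (Gm28439, 100%) and the last 483 bases of mt-Co1 (Gm29216, 99.8%). mt-Atp8 (chrM:7766-7969) had no match of 100 bases or more in an annotated nuclear transcript. It begins inside a 233-base gap between Gm10925 and Gm28661 that has the same length on both chromosomes, and its last 43 bases, shared with mt-Atp6, lie in Gm10925. Nuclear sequence without an annotated transcript was not searched.

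The sequences below show how closely these transcripts match, since a read from an identical stretch fits both places. They are stretches of 60 bases from the GENCODE M21 transcripts (GRCm38), 5′ to 3′, with capitals at bases that differ within a pair, and positions are counted from 1 at the 5′ end of the mitochondrial transcript. The stretch of mt-Co2 (chrM:7323-7382, plus strand) and that of Gm28661 (chr1:24615196-24615255, minus strand) are identical. The stretch of mt-Nd3 (chrM:9459-9518, plus strand) differs from Gm28438 (chr1:24613060-24613119, minus strand) by T3C. The stretch of mt-Co1 (chrM:6390-6449, plus strand) differs from Gm29216 (chr1:24616129-24616188, minus strand) by A1066T. For contrast, mt-Cytb (chrM:14686-14745, plus strand) differs at 4 bases from its closest annotated nuclear copy, Gm11410 (chr4:80004530-80004589, plus strand).
mt-Co2: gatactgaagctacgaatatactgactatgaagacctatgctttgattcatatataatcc
Gm28661: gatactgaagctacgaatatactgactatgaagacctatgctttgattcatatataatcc
mt-Nd3: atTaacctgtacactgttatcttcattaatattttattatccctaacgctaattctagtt
Gm28438: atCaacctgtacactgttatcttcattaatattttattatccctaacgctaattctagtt
mt-Co1: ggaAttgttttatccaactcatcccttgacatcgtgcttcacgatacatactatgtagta
Gm29216: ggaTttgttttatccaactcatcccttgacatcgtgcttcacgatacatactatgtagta
mt-Cytb: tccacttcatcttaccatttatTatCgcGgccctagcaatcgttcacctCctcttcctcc
Gm11410: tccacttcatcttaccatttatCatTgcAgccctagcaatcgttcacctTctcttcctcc

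The overlap was also counted over whole transcripts as the share of 50-base windows that occur letter for letter in a nuclear transcript. It was 100% for mt-Co2, 99.9% for mt-Co3, 99.5% for mt-Atp6, 98.8% for mt-Nd4l and 98.0% for mt-Nd3, all at 6 counts or fewer. It was 62.2% for mt-Nd4 and 51.1% for mt-Co1, 8.19% for mt-Nd2 and 7.61% for mt-Nd5. No window was shared in mt-Nd1, mt-Nd6, mt-Cytb or mt-Rnr1. mt-Atp8 shared no window of that length with an annotated nuclear transcript and had no counts. The sources used here do not say how reads with more than 1 match were handled, and the part of such reads in these low counts was not tested.

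The nuclear copies themselves had few counts. The 7 pseudogenes on chromosome 1 together came to at most 0.0047% of the mitochondrial counts in any library, and all 17 annotated copies to at most 0.0264%. The copies with a mean of at least 20 counts were Gm13340 (97.6% identical to mt-Co1, 152 to 358 counts), Gm13341 (95.9% identical to mt-Co2, 26 to 93) and Gm29216 (21 to 60). In the 24 h group Gm13341 lay below the sedentary group, with a log2 fold change of −1.01 ± 0.25 (SE; edgeR adjusted p = 0.199). Gm13340 had −0.38 ± 0.17 (edgeR adjusted p = 0.537), and Gm29216 had −0.49 ± 0.30 (edgeR adjusted p = 0.654). Whether these counts came from nuclear or from mitochondrial RNA was not tested.

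Levels of different genes were compared per length, in sedentary mice. Raw counts were scaled to the library total (CPM) and divided by the kilobases of the transcript (CPM per kb). As the libraries held polyadenylated RNA, these levels, that of mt-Nd6 among them, count the RNA caught by that selection and not the whole amount. The highest was mt-Cytb at 10320 ± 1173 CPM per kb (SD, n = 4), followed by mt-Co1 at 7052 ± 734 and mt-Nd1 at 5586 ± 480. Below them came mt-Nd4 (3270 ± 389), mt-Nd2 (2735 ± 348) and mt-Nd5 (1425 ± 253). The neighbours mt-Nd4 and mt-Nd2 differed by less than the sum of their SDs, and so did the ribosomal RNAs mt-Rnr1 (481 ± 67.6) and mt-Rnr2 (415 ± 80.5). mt-Nd6, the only protein gene on the minus strand (chrM:13552-14070), stood far below at 10.3 ± 4.82 CPM per kb. It overlaps the end of mt-Nd5 (chrM:11742-13565) on the other strand, and since the strand setting of the counting is not given, reads of that overlap cannot be assigned. Divided only by the kilobases of unshared windows, mt-Co1 came to 14904 CPM per kb and mt-Nd4 to 8975, against 10782 for mt-Cytb and 5888 for mt-Nd1, so the order of these genes depended on what length was counted.

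The set as a whole took, on average, a smaller share of counts at 24 h than in sedentary mice. This share covers only reads assigned to these genes, and 6 of the 13 protein genes had at most 6 counts in any library. It is therefore not the whole mitochondrial share of the RNA. Its share was 3.61%, 3.77%, 3.74% and 4.52% in the 4 sedentary libraries, and 2.46%, 2.71%, 2.54% and 2.16% in those of the 24 h group. All 4 libraries at 24 h lay below all 4 sedentary libraries. At 1 wk the libraries had 2.66%, 4.09%, 3.49% and 3.36%, and at 2 wk 4.01%, 3.70%, 2.99% and 4.23%. These overlapped with the sedentary libraries, and library 1 at 1 wk fell within the range of the 24 h group. The 95% Wilson intervals, which cover counting error only, reached at most 0.00592 percentage points to either side, so the spread between libraries set the precision.

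**Figure D2:**
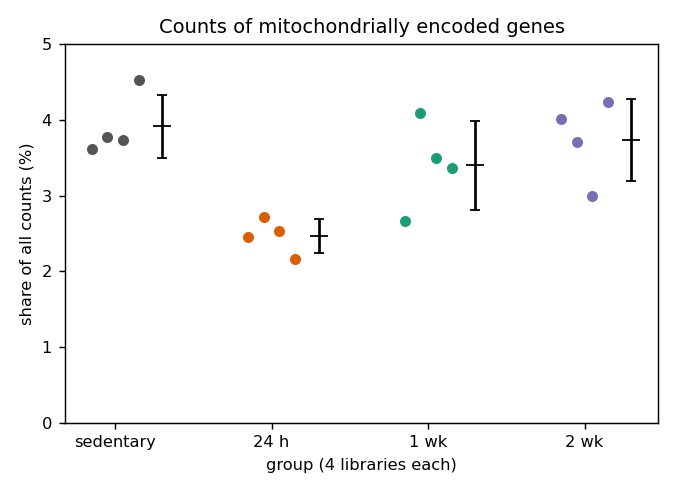
Percentage of all counts in the 37 mitochondrially encoded genes; points are libraries, and the bar to the right of each group is the mean ± SD (n = 4). The 24 h libraries lie between 2.16% and 2.71%, below the lowest sedentary library at 3.61%.

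The group means were 3.91 ± 0.41% in sedentary mice, 2.47 ± 0.23% at 24 h, 3.40 ± 0.59% at 1 wk and 3.73 ± 0.54% at 2 wk (SD, n = 4). The share at 24 h was 0.63 times the sedentary one (two-sided exact permutation test p = 0.0286, the smallest that 4 against 4 libraries allow; adjusted p = 0.0857 over 6 pairs of groups). The difference between 2 wk and 24 h reached the same values (exact p = 0.0286, adjusted p = 0.0857). The other pairs had an exact p of 0.257 (1 wk against sedentary), 0.629 (2 wk against sedentary), 0.0571 (1 wk against 24 h) and 0.457 (2 wk against 1 wk). No pair passed a threshold of 0.05 after adjustment, which would take at least 4 of the 6 pairs at the smallest p. Across the 16 libraries the correlation of the share with the total count was weak (Pearson r = 0.149, permutation p = 0.607; Spearman rho = 0.0529, permutation p = 0.849; r = 0.0248 without the 2 libraries of most extreme total). In bulk tissue, fewer cells of a mitochondria-rich type and less mitochondrial RNA per cell cannot be told apart.

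Of the 37 genes, 13 had enough counts for the test across 16126 genes: the 7 protein genes with at least 122 counts in every library, both ribosomal RNAs, and the transfer RNAs mt-Ti, mt-Tm, mt-Tw and mt-Tt. At 24 h against sedentary, 0 of 13 passed an adjusted p of 0.05 by edgeR's quasi-likelihood test, as did 0% of all genes tested. At an unadjusted p under 0.05, 8 of 13 were lower (4.43% of all genes tested) and 0 of 13 higher (4.49%). Sedentary and 24 h libraries were fully apart for 7 of 13, the 6 abundant protein genes and mt-Tm, all lower (3.66% of all genes) and none higher (3.55%). The log2 fold change was negative for 11 of 13 (51% of all genes). The same 13 genes gave 6 calls by DESeq2, which called 0.578% of all genes, and 6 by limma voom with quality weights, which called 0.304%, each time mt-Nd1, mt-Nd2, mt-Co1, mt-Nd4, mt-Nd5 and mt-Cytb, all lower. An edgeR fit of the 24 h and sedentary libraries alone called these 6 too, with 0.18% of all genes. For these 6 protein genes the median log2 fold change was −0.75 (range −0.96 to −0.52), while the median of all genes was 0.00 to 2 decimals.

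Complex I takes electrons from NADH, and its membrane arm is built around subunits that the mitochondrial genome encodes. mt-Nd1, which lies where the membrane arm meets the peripheral arm, was at 4909, 5284, 5162 and 6058 CPM in sedentary libraries (TMM-scaled) and at 3611, 3941, 3963 and 3383 CPM at 24 h. All 24 h libraries were below all sedentary ones, and the log2 fold change was −0.52 ± 0.12 (SE; edgeR adjusted p = 0.179). mt-Nd2 was at 2421, 2744, 2895 and 3311 CPM in sedentary libraries and at 1640, 1912, 1731 and 1377 CPM at 24 h. The groups again did not overlap (log2 fold change −0.77 ± 0.15, edgeR adjusted p = 0.0972). mt-Nd4, a proton-pumping subunit, was at 4408, 4498, 3872 and 5277 CPM in sedentary libraries and at 2674, 2989, 2683 and 2592 CPM at 24 h. The 24 h libraries lay close together and below the sedentary ones (log2 fold change −0.72 ± 0.17, edgeR adjusted p = 0.179).

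mt-Nd5, another proton-pumping subunit, had the lowest ratio of the 9 protein and ribosomal RNA genes tested. It was at 2198, 2268, 2761 and 3177 CPM in sedentary libraries and at 1209, 1749, 1081 and 1313 CPM at 24 h. The groups did not overlap, and the 24 h level was 0.514 times the sedentary one (log2 fold change −0.96 ± 0.19, edgeR adjusted p = 0.106). mt-Nd6, at 2.76 to 8.56 CPM in sedentary libraries and 2.47 to 3.93 at 24 h, overlapped between the groups. Its log2 fold change was −0.77 ± 0.28 (edgeR adjusted p = 0.408), and sedentary library 2 lay inside the 24 h range.

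Cytochrome b is the heme-bearing core of complex III and the only subunit of that complex that the mitochondrial genome encodes. mt-Cytb was at 10599, 11909, 10956 and 13840 CPM in sedentary libraries and at 6502, 7241, 6841 and 6060 CPM at 24 h. The highest 24 h library was well below the lowest sedentary one, and the level was 0.563 times the sedentary level (log2 fold change −0.83 ± 0.15, edgeR adjusted p = 0.0972). By unadjusted p it ranked 3 among the 16126 genes. mt-Co1, the catalytic subunit of complex IV, was at 10315, 10874, 9812 and 12651 CPM in sedentary libraries and at 6825, 8020, 6680 and 6037 CPM at 24 h. Its groups did not overlap either (log2 fold change −0.66 ± 0.13, edgeR adjusted p = 0.0972).

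**Figure D3:**
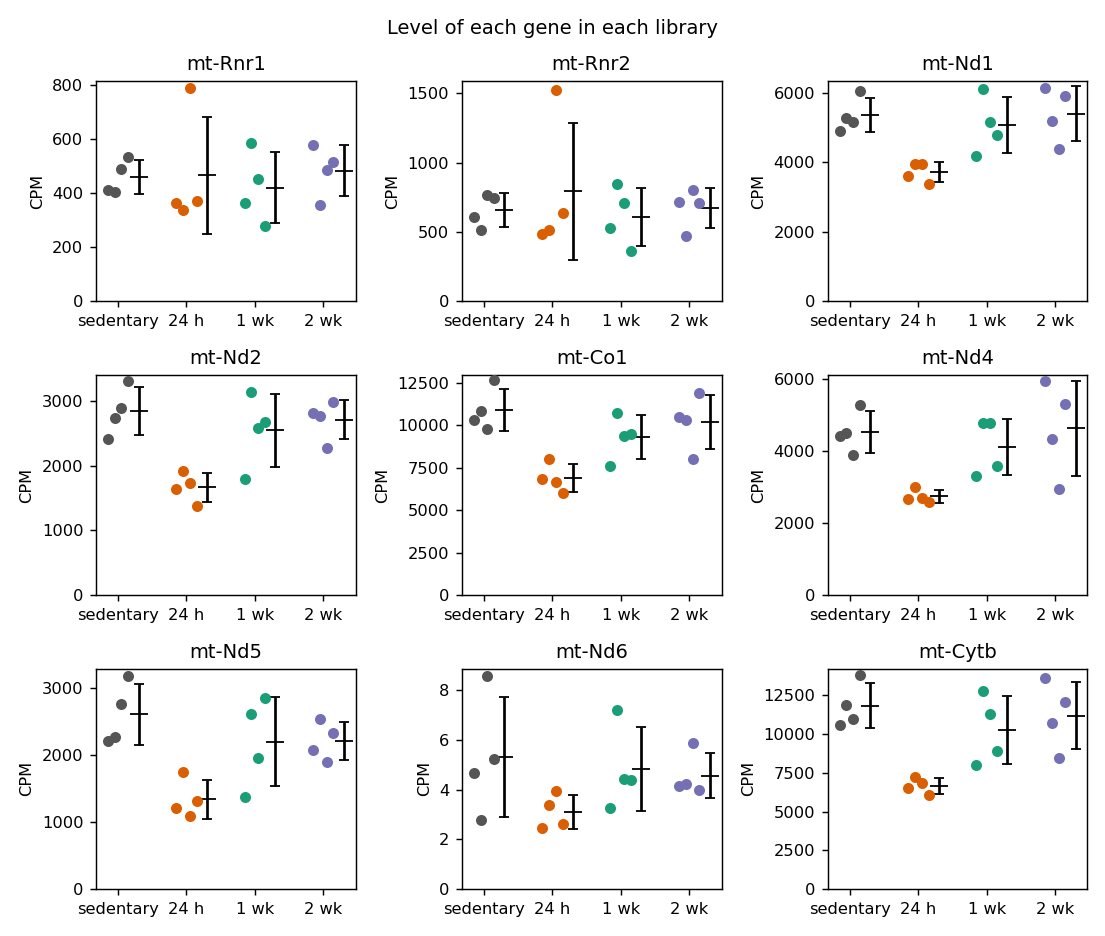
TMM-scaled CPM of 9 mitochondrially encoded genes in each library; points are libraries, bars to the right are the mean ± SD (n = 4), and each axis starts at 0. For mt-Nd1, mt-Nd2, mt-Co1, mt-Nd4, mt-Nd5 and mt-Cytb the 24 h points lie below all sedentary points, whereas mt-Rnr1 and mt-Rnr2 have 1 high library at 24 h.

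The ribosomal RNAs form the core of the mitochondrial ribosome and are transcribed ahead of the messenger RNAs. mt-Rnr1, of the small subunit, was at 412, 403, 489 and 534 CPM in sedentary libraries and at 364, 339, 788 and 371 CPM at 24 h. mt-Rnr2, of the large subunit, was at 605, 511, 768 and 744 CPM in sedentary libraries and at 487, 514, 1526 and 639 CPM at 24 h. In both genes library 3 at 24 h was the highest of all 16, and the groups overlapped. The log2 fold change was 0.02 ± 0.25 for mt-Rnr1 (edgeR adjusted p = 0.988) and 0.27 ± 0.34 for mt-Rnr2 (edgeR adjusted p = 0.860). Without that library the values turned to −0.36 for mt-Rnr1 (edgeR adjusted p = 0.930) and −0.26 for mt-Rnr2 (edgeR adjusted p = 0.954). With all libraries their 95% intervals ran from −0.52 to 0.56 and from −0.45 to 0.98. As libraries were made from polyadenylated RNA, these values count the ribosomal RNA that was caught with such a selection and not its whole amount.

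The transfer RNAs, which carry amino acids to the mitochondrial ribosome, were nearly absent from the counts. Of the 22, 11 were at 0 in all libraries and 18 had fewer than 10 counts in every library. The highest count was 80, for mt-Tw in sedentary library 3. At 24 h against sedentary, mt-Tm, the methionine transfer RNA, had a log2 fold change of −0.98 ± 0.34 (edgeR adjusted p = 0.391). Its libraries were at 0.924, 0.934, 1.37 and 1.05 CPM in sedentary mice and at 0.579, 0.297, 0.391 and 0.882 CPM at 24 h, without overlap, from at most 65 counts each. The isoleucine, tryptophan and threonine transfer RNAs mt-Ti, mt-Tw and mt-Tt had −0.60 ± 0.35, −0.77 ± 0.45 and −0.11 ± 0.45, with overlapping libraries. Since mt-Tm (chrM:3845-3913) directly adjoins mt-Nd2, and mt-Tw (chrM:4950-5016) overlaps the end of mt-Nd2, uncut precursor and mature transfer RNA cannot be told apart in these counts.

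At 1 wk against sedentary, 0 of 13 genes passed by edgeR's adjusted p (0% of all genes tested did), 0 by DESeq2 (0.0968%) and 0 by voom (0.0372%). None had an unadjusted p under 0.05 (2.33% of all genes higher and 3.72% lower), and none had groups apart (1.71% higher and 2.51% lower). The log2 fold change was negative for 11 of 13 (48.9% of all genes), and the median of the 6 protein genes was −0.18 (range −0.25 to −0.08). Between 2 wk and sedentary mice the counts were likewise 0 of 13 by edgeR (0% of all genes) and by voom (0.0372%), and 0 by DESeq2 (0.239%), which gave mt-Tt no adjusted p. None had an unadjusted p under 0.05 (4.02% of all genes higher and 3.24% lower) or groups apart (2.29% higher and 2.61% lower). The log2 fold change was negative for 8 of 13 (47.9% of all genes), and the median of the 6 was −0.07 (range −0.24 to 0.03). mt-Cytb was at 10256 ± 2205 CPM at 1 wk and 11195 ± 2186 CPM at 2 wk (SD, n = 4), against 11826 ± 1452 CPM in sedentary mice, with 95% intervals of the log2 fold change of −0.52 to 0.11 and −0.39 to 0.23. The spread between libraries thus left room for a moderately lower level at either duration.

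**Figure D4:**
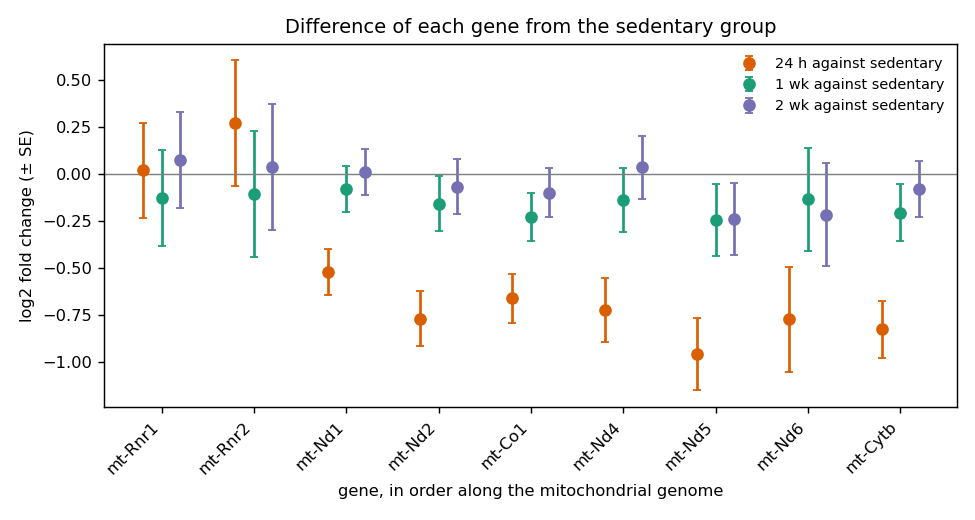
Log2 fold change against the sedentary group (± SE, edgeR) of 9 mitochondrially encoded genes in genome order, at 24 h, 1 wk and 2 wk; the 3 comparisons share the sedentary libraries. At 24 h the 7 protein genes lie between −0.96 and −0.52 and the ribosomal RNAs at 0.02 and 0.27, while at 1 wk and 2 wk all 9 lie between −0.25 and 0.07.

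Set against the 24 h group, the mean levels of the protein genes were higher at the later durations. Between 2 wk and 24 h, 0 of 13 genes passed by edgeR's adjusted p (0.0124% of all genes did), while 6 of 13 had an unadjusted p under 0.05, all higher (5.29% of all genes) and none lower (4.32%). The groups were apart for mt-Nd1, mt-Nd2, mt-Co1, mt-Nd5, mt-Nd6 and mt-Cytb, 6 of 13, all higher (1.7% of all genes) and none lower (1.56%). The log2 fold change was negative for 1 of 13 (47.8% of all genes). The median log2 fold change of the 6 protein genes was 0.71 (range 0.54 to 0.76). DESeq2 called 5 of 13, mt-Nd1, mt-Nd2, mt-Co1, mt-Nd4 and mt-Cytb (0.257% of all genes), and voom 0 (0.0186%). Without library 3 at 2 wk edgeR called 2, mt-Nd4 (log2 fold change 0.92, adjusted p = 0.0293) and mt-Cytb (0.86, adjusted p = 0.0428), with 0.0367% of all genes; this was 1 of 8 fits that left out a library of these groups, and the others called no mitochondrial gene. Between 1 wk and 24 h edgeR's adjusted p passed for 0 of 13 (0% of all genes). The unadjusted p was under 0.05 for 7 of 13, all higher (2.43% of all genes) and none lower (4.72%). Groups were apart for 3 of 13, mt-Nd1, mt-Nd4 and mt-Cytb, all higher (1.07%) and none lower (1.85%), and 2 of 13 were negative (45.6%). The median was 0.60 (range 0.43 to 0.71), DESeq2 called mt-Nd2 and mt-Cytb, 2 of 13 (0.389% of all genes), and voom 0 (0%).

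Between 2 wk and 1 wk 0 of 13 passed by edgeR (0% of all genes), by DESeq2 (0.0248%) and by voom (0.0062%), and none had an unadjusted p under 0.05 (2.86% of all genes higher, 1.71% lower). None had groups apart (0.93% higher, 0.657% lower), 5 of 13 were negative (47.7%), and the median of the 6 protein genes was 0.11. Over all 4 groups together, edgeR's F-test called none of the 13 and only 2 of all 16126 genes tested. Among the 13 the smallest adjusted p of that F-test was that of mt-Cytb (0.195). mt-Nd4 at 2 wk had the widest scatter of the 6 protein genes relative to its mean, with 5938, 4335, 2929 and 5294 CPM. Library 3 of that group lay inside the 24 h range for mt-Nd4 (2592 to 2989 CPM), although not for mt-Cytb, where it was at 8440 CPM.

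The make-up of the mitochondrial counts was compared apart from their total. mt-Nd1 took 13.7%, 13.7%, 14.1% and 13.3% of mitochondrial counts in sedentary libraries and 15.5%, 14.8%, 15.7% and 15.5% at 24 h. It took 15.4%, 14.7%, 14.2% and 14.5% at 1 wk and 14.5%, 14.1%, 14.96% and 14.2% at 2 wk. Every exercised library was above every sedentary one, at 1.67, 1.02 and 0.74 percentage points over the sedentary mean of 13.7 ± 0.32% (each exact p = 0.0286, adjusted p = 0.0571 over 6 pairs). The margin was narrow at the later durations, where the lowest libraries had 14.20% and 14.11% against 14.06% in the highest sedentary library.

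mt-Cytb took 29.5%, 30.9%, 29.8% and 30.4% of mitochondrial counts in sedentary libraries, and 27.9%, 27.1%, 27.0% and 27.8% at 24 h. The 24 h group was apart from the sedentary group by 2.70 percentage points and from the 2 wk group (28.9% to 32.1%) by 2.29 points (each exact p = 0.0286, adjusted p = 0.0857). At 1 wk library 4 had 27.1%, inside the 24 h range, and the other libraries had 29.4% to 31.2%. The ribosomal RNAs together took 2.86 ± 0.43% in sedentary mice and 5.16 ± 2.73% at 24 h (SD, n = 4; exact p = 0.0571, adjusted p = 0.257), a difference of 2.30 points that was 0.97 points without library 3 at 24 h (9.15%). The shares of mt-Nd2, mt-Co1, mt-Nd4, mt-Nd5, mt-Nd6, all of complex I and the transfer RNAs did not reach the smallest p in any of the 6 pairs. In all, 12 make-up measures were compared over 6 pairs each.

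**Figure D5:**
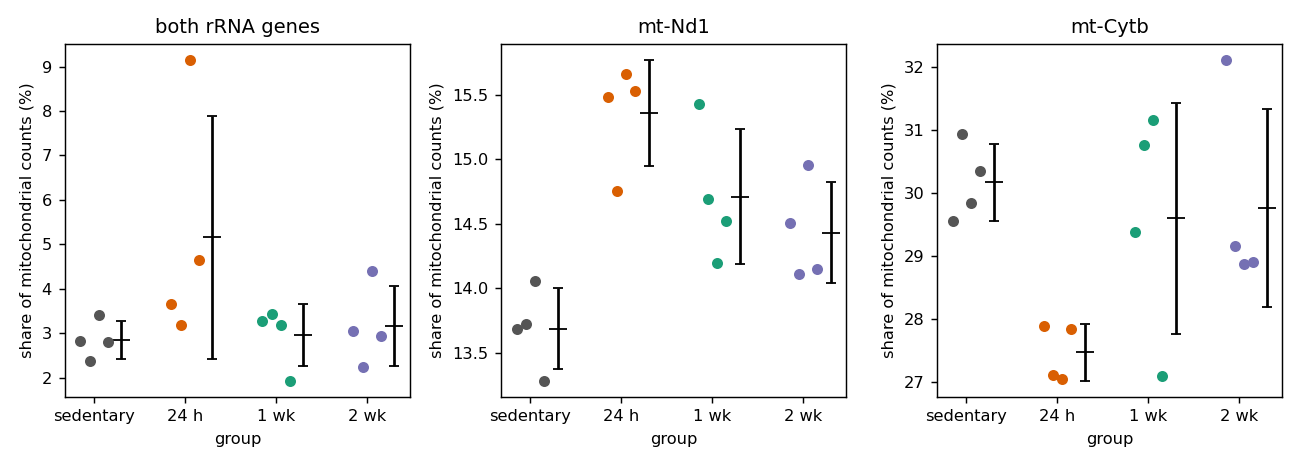
Percentage of the mitochondrial counts of a library taken by both ribosomal RNAs, by mt-Nd1 and by mt-Cytb; points are libraries, bars are the mean ± SD (n = 4), and the axes do not start at 0. For mt-Nd1 all exercised libraries lie above the sedentary ones, for mt-Cytb the 24 h libraries lie below the sedentary and 2 wk ones, and library 3 at 24 h stands at 9.15% ribosomal RNA.

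The respiratory chain also needs nuclear genes, and their lists gave 0 calls at 24 h by edgeR. Of all genes tested, edgeR called 0% at 24 h, and 51% had a negative log2 fold change. The 36 nuclear subunits of complex I had a median log2 fold change of 0.06, with 29 positive and 7 negative, beside a median of 0.00 over all genes. The medians were −0.02 for the 4 subunits of complex II, which has no mitochondrially encoded part, 0.06 for 9 of complex III, 0.08 for 11 of complex IV and 0.07 for 15 of the ATP synthase. No member of these 5 lists had an unadjusted p under 0.05, in either direction (4.49% of all genes higher and 4.43% lower). By smallest p the named genes were Ndufb10 (0.23 ± 0.13) and Ndufa8 (0.21 ± 0.12) of complex I, Sdha (−0.07 ± 0.11) and Sdhc (0.04 ± 0.08) of complex II, and Uqcrc1 (0.12 ± 0.08) and Uqcrfs1 (0.11 ± 0.09) of complex III. Cox6a1 (0.17 ± 0.13) and Cox6c (−0.19 ± 0.16) of complex IV, and Atp5g1 (0.20 ± 0.12) and Atp5d (0.13 ± 0.11) of the ATP synthase completed them. The 6 mitochondrially encoded protein genes, of complexes I, III and IV, thus had a median of −0.75 at 24 h. The 5 nuclear lists had medians near 0, from −0.02 to 0.08. The difference between the mitochondrially encoded genes and the nuclear lists was not tested.

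Genes that maintain and read the mitochondrial genome were examined the same way, beside 0% of all genes passing at 24 h and 51% negative. Of 18 genes of mitochondrial DNA transcription and replication, 0 passed at 24 h (median 0.02), and 2 had an unadjusted p under 0.05, a share close to the 8.92% of all genes. They were Primpol, a primase and polymerase (4.00 ± 0.63 against 5.21 ± 0.33 CPM, log2 fold change −0.38 ± 0.13, edgeR adjusted p = 0.390), and Mgme1, a mitochondrial exonuclease (19.1 ± 3.39 against 15.5 ± 1.29 CPM, 0.30 ± 0.12, edgeR adjusted p = 0.488). Of 33 genes of mitochondrial RNA processing and stability 0 passed (median 0.02). The smallest p belonged to Nsun3, which modifies the methionine transfer RNA (log2 fold change −0.28 ± 0.11, edgeR adjusted p = 0.467), and Elac2, which cuts transfer RNAs at their 3′ end (0.20 ± 0.10, edgeR adjusted p = 0.565). Of 78 mitochondrial ribosomal proteins 0 passed, 62 were positive and the median was 0.07, with Mrps36 at 0.26 ± 0.10 and Mrpl1 at −0.25 ± 0.12. The 12 genes of mitochondrial protein quality control had a median of 0.08 and 0 calls, with Dnaja3, a mitochondrial chaperone, at 0.15 ± 0.08 and the protease gene Yme1l1 at −0.21 ± 0.12.

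At 1 wk against sedentary the nuclear lists also had 0 calls, with medians of 0.15 for complex I (35 of 36 positive), 0.13 for complex III, 0.15 for complex IV (11 of 11 positive) and 0.12 for the ATP synthase (15 of 15 positive). The summed level of complex I was highest in library 3 at 1 wk, at 11610 CPM against 8851 to 9671 in sedentary libraries, and library 4 of that group was at 8134. Between 2 wk and sedentary mice the medians were −0.03, −0.05, −0.02 and −0.01 for the same 4 lists, again with 0 calls. Of all genes tested, edgeR called 0% in both comparisons, and 48.9% were negative at 1 wk and 47.9% at 2 wk.

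Markers of the proximal tubule, which makes up most of the kidney cortex, were high in all libraries. Of 9 proximal tubule markers 0 passed at 24 h (0% of all genes did). All 9 were negative (51% of all genes), and the median log2 fold change was −0.11. Their summed level was 24350 to 26820 CPM in sedentary libraries and 23530 to 26470 at 24 h, with overlap. Between 2 wk and 24 h the 9 markers were all positive, while 47.8% of all genes were negative. Their median was 0.18, with 0 calls (0.0124% of all genes) and 3 at an unadjusted p under 0.05 (5.29% of all genes were higher at that p). In these comparisons the proximal tubule markers thus had the sign of the mitochondrial protein genes, with smaller values. At 1 wk their medians were −0.01 against sedentary and 0.09 against 24 h. Between 2 wk and sedentary mice their median was 0.07 (7 of 9 positive), against −0.07 for the 6 protein genes, while 47.9% of all genes were negative. The part of these markers in the result was not tested.

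Markers of other segments and cells had 0 calls at 24 h, where edgeR called 0% of all genes. Positive were 4 of 4 distal convoluted tubule, 8 of 8 collecting duct, 4 of 4 podocyte and 5 of 5 erythroid markers. Negative were 2 of 3 thick ascending limb, 4 of 5 endothelial and 4 of 6 leukocyte markers, beside 51% of all genes. At an unadjusted p under 0.05, 2 collecting duct markers and 1 leukocyte marker were higher (4.49% of all genes), and none was lower (4.43%). The thick ascending limb had a median of −0.04 over 3 genes (Umod 2560 ± 456 against 2626 ± 230 CPM), the distal convoluted tubule 0.20 over 4 (Slc12a3 458 ± 71.5 against 404 ± 68.2) and the collecting duct 0.14 over 8 (Aqp2 190 ± 35.3 against 182 ± 21.6). Podocytes had 0.19 over 4 (Podxl 130 ± 24.3 against 127 ± 12.6), endothelium −0.11 over 5 (Emcn 49.9 ± 9.88 against 54.0 ± 4.60) and leukocytes −0.02 over 6 (Csf1r 64.4 ± 5.42 against 66.7 ± 6.98). Erythroid genes had 0.40 over 5 (Hbb-bs 335 ± 93.6 against 277 ± 65.5), and their summed level overlapped, at 334 to 582 CPM in sedentary libraries and 445 to 754 at 24 h. Skeletal muscle, adipocyte and adrenal cortex markers were near 0, with sums of at most 1.44, 0.919 and 0.478 CPM in any sedentary or 24 h library (Mylpf, Cidec and Star were the most abundant).

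Between 2 wk and 24 h, where the protein genes had a median of 0.71, several of these lists had medians further from 0 than the proximal tubule's, again with 0 calls by edgeR. The erythroid median was 0.89 (5 of 5 positive, 3 at an unadjusted p under 0.05), with sums of 683 to 1657 CPM at 2 wk against 445 to 754 at 24 h. Collecting duct markers had 0.29 (8 of 8 positive, 4 at an unadjusted p under 0.05), and distal convoluted tubule markers had 0.24 (3 of 4 positive, 1 at that p). Leukocyte markers had −0.41 (6 of 6 negative, 2 at that p), podocyte markers −0.17, endothelial markers −0.15 and thick ascending limb markers −0.08. Of all genes tested at 2 wk against 24 h, edgeR called 0.0124%. At an unadjusted p under 0.05, 5.29% were higher and 4.32% lower, and 47.8% had a negative log2 fold change. Adipocyte markers reached 7.89 CPM in library 1 at 2 wk and at most 1.06 in the other libraries of that group. The part of these cell types in the mitochondrial counts was not tested in either comparison.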

How the data were processed

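Kidney cortex RNA was sequenced in 16 libraries (TruSeq Stranded mRNA, polyadenylated RNA, per the labels' protocols). The values deposited are whole, unnormalized read counts for each gene. The submitters' processing notes name FastQC 0.10.1, HTSeq 0.10.0 and the build GRCm38 (mm10). The sources used here do not give the aligner, the annotation release, the strand setting or the handling of reads with several matches. Of 24 columns, 8 match no sample and were not used. Symbols came from GENCODE M21, which names 52081 of 55414 identifiers (94.0%) with 99.4% of the counts.

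Genes were tested with edgeR 4.0.16 (R 4.3.3): filterByExpr by group, TMM, robust quasi-likelihood F-test, all 16 libraries in 1 fit, Benjamini-Hochberg adjustment over 16126 genes, threshold 0.05. DESeq2 1.42.0, voom in limma 3.58.1, other scalings and filters, and leaving out each library were alternatives. Shares of raw counts were compared by two-sided exact permutation tests over 70 arrangements. Nuclear copies were the annotated nuclear transcripts matching a mitochondrial transcript over at least 100 bases at 90% identity or more (blastn 2.17.0); the nuclear genome itself was not searched. Shared windows were exact matches of 50 bases. Values after ± are SD for levels and SE for log2 fold changes. The test was checked on simulated counts. Named genes were all mt- genes, copies with a mean of at least 20 counts, the 2 genes of smallest p at 24 h in each nuclear list, and the most abundant marker of each cell type (that of the proximal tubule is not reported here); Gm28661, Gm10925, Gm28437, Gm10222, Gm28438, Gm28439 and Gm11410 were named for their sequence. The members, lists and tests were chosen with earlier results of these data known.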

Additional observations from a re-analysis of the deposited data

Results flagged for a closer look

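In 104 sets of 4 libraries (a measure in a group), the highest or lowest library was checked for its distance from the others by Dixon's criterion for small sets, and 6 stood apart; chance gives about 1 in 20. Library 3 at 24 h stood apart for both ribosomal RNAs, with mt-Rnr1 at 788 CPM against 339 to 371 in the other libraries, and mt-Rnr2 at 1526 CPM against 487 to 639. Library 4 at 1 wk was low for the ribosomal RNA share of mitochondrial counts, at 1.93% against 3.19% to 3.44%, and for the share of mt-Rnr2 alone, at 1.09% against 1.94% to 2.03%. In library 1 at 2 wk mt-Cytb took 32.1% of mitochondrial counts, against 28.9% to 29.1% in the others. In library 3 at 2 wk mt-Nd6 was at 5.89 CPM against 3.99 to 4.21.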

How the results depend on the processing

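The median log2 fold change of the 6 protein genes at 24 h against sedentary stayed between −0.76 and −0.72 under 9 settings. These settings varied scaling, filter, samples and test, and they included the main fit. Each of the 6 genes was negative in all 16 fits other than the main fit, and 8 of these left out a library. Their calls depended on the test, the filter and the libraries fitted. Of the mitochondrial genes, 3 were called at 24 h against sedentary with no low-count filter, where 9 genes were called in all. With only the compared groups 6 were called (0.18% of all genes), by voom 6 (0.304%) and by DESeq2 6 (0.578%). At 2 wk against 24 h the number was 2 with no filter, where 8 genes were called in all, and 5 by DESeq2 (0.257%). At 1 wk against 24 h it was 2 by DESeq2 (0.389%). The cause was not tested.

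Over all genes, 0 were called at 24 h against sedentary, but 2 with total count scaling, 9 with no filter, 28 with only the compared groups, 49 by voom and 86 by DESeq2. At 1 wk against sedentary (0) voom called 6 and DESeq2 15. At 2 wk against sedentary (0) it was 5 with no filter, 2 with only the compared groups, 6 by voom and 34 by DESeq2. At 2 wk against 24 h (2) it was 4 with total count scaling, with scaling without mitochondrial genes and with a filter of 1 CPM in 4 libraries, 8 with no filter and 39 by DESeq2. DESeq2 called 59 at 1 wk against 24 h (0), and at 2 wk against 1 wk (0) voom called 1 and DESeq2 4. At an unadjusted p under 0.05 edgeR had 1439, 975, 1170, 1153, 1549 and 738 genes at 24 h, 1 wk and 2 wk against sedentary, 1 wk and 2 wk against 24 h, and 2 wk against 1 wk.

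Leaving out 1 library gave 0 to 1 calls over all genes at 1 wk against sedentary, 0 to 8 at 2 wk against sedentary, 0 to 2 at 1 wk against 24 h and 0 to 7 at 2 wk against 24 h, and 0 to 2 mitochondrial calls at 2 wk against 24 h. The log2 fold change of mt-Rnr1 ranged from −0.36 to 0.14 at 24 h against sedentary, −0.35 to 0.23 at 1 wk against 24 h and −0.069 to 0.43 at 2 wk against 24 h. That of mt-Rnr2 ranged from −0.26 to 0.44, −0.58 to 0.16 and −0.41 to 0.30. Their sign also turned by voom: mt-Rnr1 had −0.12 at 24 h against sedentary and 0.19 at 1 wk against 24 h, and mt-Rnr2 had 0.04 in both comparisons with 24 h (0.043 at 1 wk and 0.037 at 2 wk).

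Shares of mitochondrial counts computed over protein genes only moved at 24 h against sedentary, to 0.88 percentage points for complex I, 2.12 for mt-Nd1 and −2.08 for mt-Cytb. Adding all annotated nuclear copies, chosen after seeing the data, left the share difference at 24 h at −1.45 points. With a filter of 1 CPM the leukocyte median was 0.17 at 24 h against sedentary and −0.55 at 2 wk against 24 h.

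Whether replicate numbers pair the libraries was not tested. Same-numbered pairs correlated between −0.239 and 0.375, 8 of 24 above 0.1, and 7 of 16 libraries correlated best with their own number. With a replicate block 5 genes were called at 2 wk against sedentary and 11 at 2 wk against 24 h, no mitochondrial gene was called in any comparison, and mt-Rnr1 at 24 h against sedentary was −0.040. The median of the 6 protein genes with the replicate block was −0.74, and the share difference of −1.45 points had an exact sign-flip p of 0.125, the smallest for 4 pairs.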
